A study of Mus musculus with 12 samples.

Results

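Chaperones of the heat shock response are described here in ribosome-bound RNA of the mouse gut wall. The set holds 10 of the 12975 genes counted, taken by gene name: the HSP70 genes Hspa1a, Hspa1b and Hspa8, the co-chaperones Dnajb1, Hsph1 and Bag3, the cytosolic HSP90 genes Hsp90aa1 and Hsp90ab1, and the mitochondrial chaperonin genes Hspd1 and Hspe1. All 10 were found in the table and all 10 passed the filter on low counts in every comparison. Small heat shock proteins do not belong to the set.

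The RNA came from the small intestinal muscularis, the muscle layer of the gut wall that houses enteric ganglia, of 6 CreERT2 Rpl22HA mice (strain B6J.129(Cg)-Rpl22tm1.1Psam/SjJ). In these mice a tamoxifen-inducible Cre, driven by a promoter that is active in enteric glial cells (EGCs), switches the ribosomal protein Rpl22 to an HA-tagged form. All 6 mice, controls included, carried both alleles and had been given 2 injections of 100 µl tamoxifen at 15 mg/ml at 10 to 12 weeks of age, and were killed 3 to 4 weeks after the first. Mice were naive (T0) or taken 3 h after intestinal manipulation (T3), in which the small bowel is exteriorised and stroked with a cotton applicator under anesthesia. The homogenate of each mouse was split between an anti-HA antibody and a mouse IgG1 control, which gave 4 groups of 3 libraries: HA T0, HA T3, IgG T0 and IgG T3. No mice that underwent anesthesia and laparotomy without manipulation were analysed here. Mice are numbered 1, 2 and 4 at T0 and 1, 3 and 4 at T3, and the same number at T0 and T3 names different mice.

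Proteins unfold in cells under heat, oxidative or mechanical stress. The transcription factor HSF1 is then released from chaperones, forms trimers and binds heat shock elements, inverted repeats of the unit GAA, in promoters of chaperone genes. HSP70 proteins bind exposed hydrophobic stretches with the help of J-domain proteins such as Dnajb1, nucleotide exchange factors such as Hsph1 and Bag3 release the client, and HSP90 completes the folding of kinases and receptors.

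Promoters of 7 of the 10 genes were present in the RefSeq table for GRCm38.p6, as windows from 250 bases before to 50 after the annotated start. Hspa1a (chr17:34969190-34972156, minus strand) and its neighbour Hspa1b (chr17:34956436-34959238, minus strand) are intronless genes that encode almost the same protein. The 250 bases upstream of both starts are shown because the sister genes differed in the libraries, as given below, although 247 of these 250 bases are the same. Capitals mark a pair of inverted heat shock units, GAANNTTC, which begins 104 bases before either start.
Hspa1a (chr17:34972157-34972406): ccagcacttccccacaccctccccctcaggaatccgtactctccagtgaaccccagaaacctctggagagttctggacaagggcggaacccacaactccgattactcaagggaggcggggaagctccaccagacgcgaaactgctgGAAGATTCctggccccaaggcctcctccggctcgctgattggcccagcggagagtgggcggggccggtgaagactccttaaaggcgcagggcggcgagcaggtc
Hspa1b (chr17:34959239-34959488): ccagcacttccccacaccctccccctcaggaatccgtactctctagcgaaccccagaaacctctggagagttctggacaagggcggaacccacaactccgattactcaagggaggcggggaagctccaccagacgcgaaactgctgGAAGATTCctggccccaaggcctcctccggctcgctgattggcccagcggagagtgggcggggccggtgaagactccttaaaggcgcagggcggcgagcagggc
The 3 differences, counted from 1 at the first printed base with the base of Hspa1a first, are C44T, T47C and T249G. None lies within the capitals. A GAANNTTC or TTCNNGAA pair was present in 15.1% of all 32851 promoter windows, and in at least one window of 6 of the 7 matched genes. The first is a share of windows and the second a count of genes. Hspd1, Hsph1 and Dnajb1 have further annotated starts and so further windows, and the Hspd1 window with its start at 55088243 held no pair.

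Heat shock elements of 3 units, GAANNTTCNNGAA or TTCNNGAANNTTC, searched on both strands, contain such a pair and were rarer, at 0.603% of the windows. The set held them in 3 genes, Hspd1, Hspe1 and Hsph1. Hspd1 and Hspe1 lie head to head on chromosome 1 and share 1 such stretch, from 89 to 72 bases before the start of Hspe1. It is shown as 30 bases on the strand of Hspe1, with the overlapping elements in capitals.
Hspe1 and Hspd1 (chr1:55088053-55088082): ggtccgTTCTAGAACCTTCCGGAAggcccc
In Hsph1 the element lay downstream of either annotated start. Bag3, the gene with the largest change of the set, is shown for contrast: its 250 upstream bases held no element of either kind, and a GAANNTTC or TTCNNGAA pair stood 42 bases after the start.
Bag3 (chr7:128523333-128523582, plus strand): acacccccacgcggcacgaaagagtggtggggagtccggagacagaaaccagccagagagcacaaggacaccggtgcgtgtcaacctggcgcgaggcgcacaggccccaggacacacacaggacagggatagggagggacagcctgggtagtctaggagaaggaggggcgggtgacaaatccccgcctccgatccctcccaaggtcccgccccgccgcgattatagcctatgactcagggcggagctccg
Dnajb1 held neither element in its windows. A match is a string of letters and not a measured binding site. The search took exact letters only, so a missing match covers exact units within this window and no others.

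Depth and cell makeup differed between groups. Totals were 1221788 to 2870591 UMI counts in the HA libraries, 388214 to 1289833 in IgG T0 and 88136 to 248522 in IgG T3, so that a count of 0 allows up to 1.05 to 2.46 CPM (UMI counts of a gene scaled to its library total) in HA and up to 34.04 CPM in the shallowest IgG T3 library. The summed level of 10 glia markers was 3750 to 5226 CPM in HA and 196 to 266 in IgG T0. In IgG T3 that sum was 1112, 913 and 245 CPM in animals 1, 3 and 4, so 2 of these libraries lay above every IgG T0 library. Rpl22, which carries the tag, was at 61.5 to 93.7 CPM in HA and 10.9 to 34.0 in IgG. Smooth muscle markers summed to 13139 to 24488 CPM in HA and 42012 to 65596 in IgG. With time, 5 of 5 tested mesothelium markers, 5 of 7 fibroblast markers, 4 of 5 markers of interstitial cells of Cajal, 3 of 6 macrophage markers, 3 of 10 smooth muscle markers and 1 of 7 epithelium markers fell in HA and none of these rose. Of the neuron markers 4 of 11 rose and 0 fell, 1 of 3 endothelium markers and the 1 tested neutrophil and monocyte marker rose, and of the glia markers 2 of 10 rose and 1 fell. Summed levels went from 4137 to 4965 CPM in HA T0 to 1658 to 2164 in HA T3 for interstitial cells of Cajal, and from 1176 to 1382 to 1296 to 2245 for neurons. None of these markers was at 0 throughout HA, and their part in the results was not tested. In such bulk pull-downs more cells of a type and more RNA per cell cannot be told apart.

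The first comparison asked how the chaperones in the glial pull-down changed 3 h after manipulation. Of the 10 genes, 6 rose in HA and 0 fell, where 18.7% of all 9441 genes tested rose and 15.1% fell (edgeR quasi-likelihood test, Benjamini-Hochberg adjusted p under 0.05). At an unadjusted p under 0.05 and by DESeq2 the counts were the same, 6 and 0. No share of all genes was computed at an unadjusted p, here or below, so counts at that threshold have no background. The same 6 genes had every HA T3 library above every HA T0 library in CPM, as 15.6% of all genes had. Bag3 rose most, followed by Hspa1a, Hsp90aa1, Dnajb1, Hsp90ab1 and Hspa8. The median log2 fold change was 1.02 over the set and -0.02 over all genes. Library totals in place of TMM scaling shifted the median of all genes by -0.27, and the 6 genes remained called, as they did in each of the 13 alternatives to this fit. The summed level of the set was 2183 to 2880 CPM in HA T0 and 3912 to 4736 in HA T3.

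**Figure D1:**
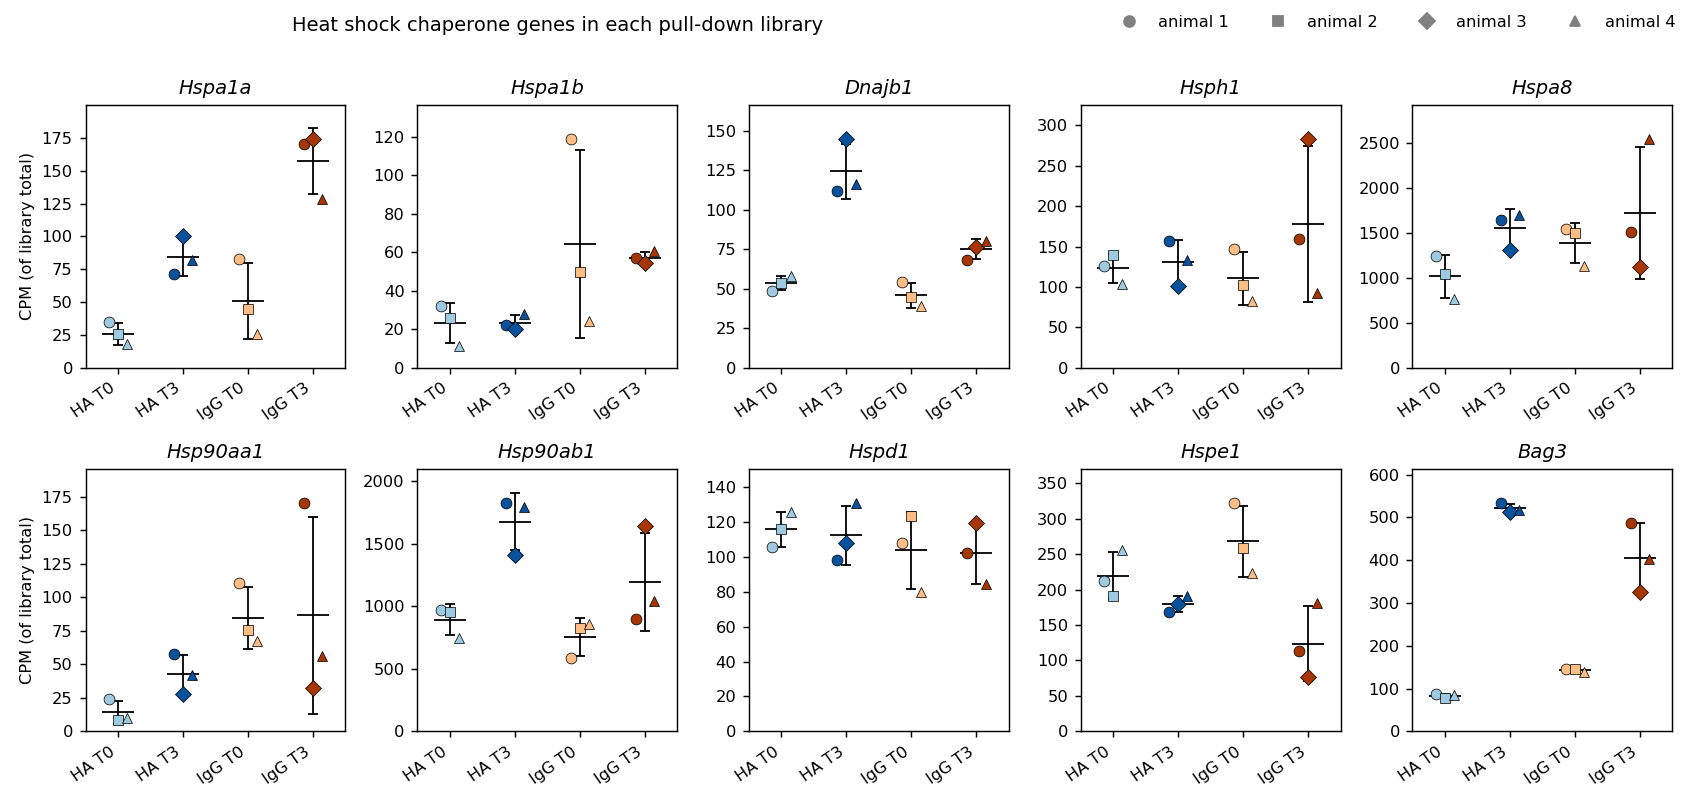
Levels of the 10 chaperone genes in CPM (vertical axes, linear, 1 panel per gene) in the 12 libraries, by group; bars are the mean ± SD of 3 libraries, and the same symbol at T0 and T3 stands for different mice. Bag3 is at 77.7 to 86.8 CPM in HA T0 and 513.6 to 533.6 in HA T3, whereas Hspa1b overlaps between the times.

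The stress-inducible HSP70 genes did not move together. Hspa1a was at 34.6, 25.7 and 17.8 CPM in HA T0 and at 71.2, 100.3 and 81.8 in HA T3. The groups did not overlap, and the log2 fold change was 1.96 (SE 0.25, adjusted p 6.67e-06), or 3.89-fold. Hspa1b was at 31.9, 25.7 and 11.5 CPM in HA T0 and at 22.1, 20.1 and 28.0 in HA T3. Its groups overlapped, and its log2 fold change of 0.28 did not pass (adjusted p 0.560). The interval of 2 SE ran from -0.41 to 0.98, so changes within these limits were not excluded, and without HA T0 animal 4 the value was -0.11.

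The same split was seen as a share of reads. Hspa1b made up 48.0%, 50.0% and 39.3% of the UMI counts of the pair in the HA T0 libraries, over 173, 92 and 84 counts. It made up 23.7%, 16.7% and 25.5% in HA T3, over 114, 180 and 141 counts. Each HA T3 library lay below each HA T0 library, with 95% Wilson intervals of 11.9% to 33.3% at T3 and 29.5% to 60.0% at T0 at their extremes. The mean share went from 45.8% ± 5.69 to 22.0% ± 4.68 (SD, n = 3 each; exact two-sided permutation p 0.1, the smallest that 3 against 3 allow; 0.3 adjusted over 6 tests). In IgG it went from 53.4% ± 5.30 to 26.9% ± 4.38 (n = 3 each; exact permutation p 0.1, adjusted 0.3), again without overlap. These intervals cover counting error only.

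The pair is uncertain in one respect. Of the 50-base stretches in the last 1000 transcript bases, where reads were counted, 11.8% in Hspa1a and 23.8% in Hspa1b occur in the sister. Reads that lie wholly within shared bases are not kept when only unique matches are counted. A gene model on the other strand, Gm20481, overlaps the counted end of Hspa1a, and whether counting used strand is not given in the sources used here. Their part in the shares was not tested.

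**Figure D2:**
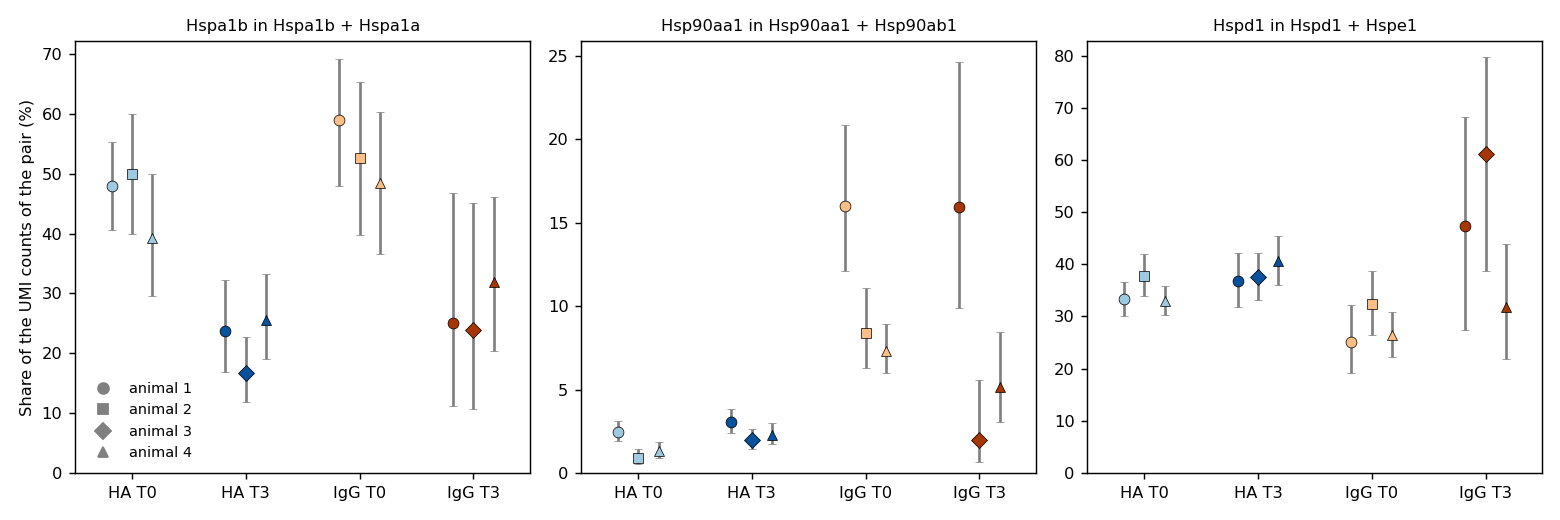
Share of the UMI counts of a gene pair (vertical axis, %) in each library, with 95% Wilson intervals, for Hspa1b with Hspa1a, Hsp90aa1 with Hsp90ab1 and Hspd1 with Hspe1; the same symbol at T0 and T3 stands for different mice. The Hspa1b share lies at 39.3% to 59.0% in the T0 libraries and at 16.7% to 31.9% in the T3 libraries.

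The partners of HSP70 differed among themselves. Bag3 couples HSP70 to the small heat shock proteins and to autophagic removal of damaged cytoskeletal proteins. It lies on chromosome 7 (chr7:128523616-128546981) and was at 86.8, 77.7 and 85.3 CPM in HA T0 and at 533.6, 513.6 and 518.5 in HA T3. The spread within a group was small beside the difference, a log2 fold change of 2.91 (SE 0.18, adjusted p 9.20e-11) or 7.51-fold. Dnajb1, the J-domain protein that stimulates the ATPase of HSP70 (chr8:83608193-83612653), was at 48.8, 53.6 and 57.8 CPM in HA T0 and at 112.1, 144.4 and 116.0 in HA T3. It rose by a log2 fold change of 1.49 (SE 0.18, adjusted p 3.08e-06), again without overlap.

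Hsph1, an HSP110 protein that exchanges the nucleotide of HSP70 (chr5:149614287-149636376), was at 125.9, 139.7 and 104.2 CPM in HA T0 and at 157.2, 101.0 and 133.1 in HA T3. The values overlapped, and the log2 fold change was 0.34 (SE 0.20, interval -0.06 to 0.74, adjusted p 0.197). No 50-base stretch in the counted end of Bag3, Dnajb1 or Hsph1 occurred in another gene.

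Hspa8 is the constitutive HSP70 of the cytosol (chr9:40800984-40810087). It was at 1242, 1041 and 768 CPM in HA T0 and at 1644, 1307 and 1704 in HA T3. It rose by a log2 fold change of 0.86 (SE 0.20, adjusted p 0.00239), or 1.82-fold, and the lowest T3 library lay narrowly above the highest T0 library. Hspa8 has many processed copies: 88.6% of the 50-base stretches of its counted end occur in 1 or more of 11 other annotated genes, most of all in Gm15459. The length of 50 bases was chosen here, and how far the counts rest on the remaining stretches was not tested.

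Both cytosolic HSP90 genes rose. Hsp90aa1, the inducible form (chr12:110690605-110702728), was at 24.2, 8.38 and 9.75 CPM in HA T0, from 63, 15 and 28 counts. In HA T3 it was at 57.3, 28.1 and 42.0 CPM. The log2 fold change was 1.80 (SE 0.40, adjusted p 0.00479), and the lowest T3 library lay only just above the highest T0 library. Hsp90ab1, the constitutive form (chr17:45567775-45573271), was at 968, 953 and 747 CPM in HA T0 and at 1824, 1411 and 1790 in HA T3. It rose by 1.17 (SE 0.18, adjusted p 5.32e-05), or 2.25-fold. The share of Hsp90aa1 in the counts of the pair was 1.53% ± 0.811 in HA T0 and 2.43% ± 0.560 in HA T3, with overlap (n = 3 each; exact permutation p 0.3, adjusted 0.36).

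The mitochondrial chaperonin genes did not pass the test in HA. Hspd1, the HSP60 subunit (chr1:55077835-55088243), was at 105.6, 116.2 and 125.8 CPM in HA T0 and at 98.2, 107.7 and 130.8 in HA T3 (log2 fold change 0.22, interval -0.14 to 0.58, adjusted p 0.359; -0.05 with library totals as scaling). Hspe1, its co-chaperonin lid HSP10 (chr1:55088132-55091307), was at 211.9, 191.1 and 255.7 CPM in HA T0 and at 168.6, 179.2 and 191.5 in HA T3 (log2 fold change -0.02, interval -0.37 to 0.33, adjusted p 0.941). With library totals as scaling Hspe1 was at -0.29, which did not pass either (edgeR, adjusted p 0.194). Both are the genes whose shared promoter holds the row of heat shock units shown above. Of the 50-base stretches of their counted ends, 35.2% and 36.1% occur in other genes.

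The IgG libraries gave the background measured the same way. Of the 10 genes, 2 rose from IgG T0 to IgG T3 and 0 fell, where 4.43% of 5219 genes rose and 1.03% fell. At an unadjusted p under 0.05 the counts were 2 and 1, and by DESeq2 2 and 0. Bag3 was at 146.8, 145.7 and 138.8 CPM in IgG T0 and at 487.9, 326.0 and 402.4 in IgG T3. It rose by a log2 fold change of 1.47 (SE 0.28, adjusted p 0.00500), although without IgG T0 animal 2 the adjusted p was 0.0510. Hspa1a was at 82.4, 44.6 and 25.6 CPM in IgG T0 and at 170.2, 173.9 and 128.8 in IgG T3, from 15 to 32 counts in the latter. It rose by 1.66 (SE 0.44, adjusted p 0.0427), a call lost without any of 5 of the 6 libraries, the exception being IgG T0 animal 1 (0.0772 to 0.180 without each of the others).

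With animal 4 as the only IgG T3 library, since the glia marker level was raised in animals 1 and 3, Bag3 remained called (1.57, adjusted p 0.00731) and Hspa1a did not (1.52, adjusted p 0.192). That fit assumes that the lone library varied like the others and was chosen after the data were seen.

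The other 8 genes did not pass in IgG. Dnajb1 (log2 fold change 0.74, adjusted p 0.296) and Hsp90ab1 (0.63, adjusted p 0.259) had all IgG T3 libraries above all IgG T0 libraries, as 13.4% of all genes had. Hspe1 was at 322.0, 258.8 and 223.3 CPM in IgG T0 and at 113.5, 76.1 and 181.1 in IgG T3. Its T3 libraries lay below all T0 libraries, as those of 12.6% of all genes did, and its log2 fold change was -1.02 (SE 0.36, adjusted p 0.115), from 10, 7 and 45 counts at T3. The call appeared without the filter on low counts (adjusted p 0.0496) and in a fit of all 12 libraries (0.0268). Hspa1b, Hsph1, Hspa8, Hsp90aa1 and Hspd1 lay between -0.07 and 0.60 with overlapping groups.

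**Figure D3:**
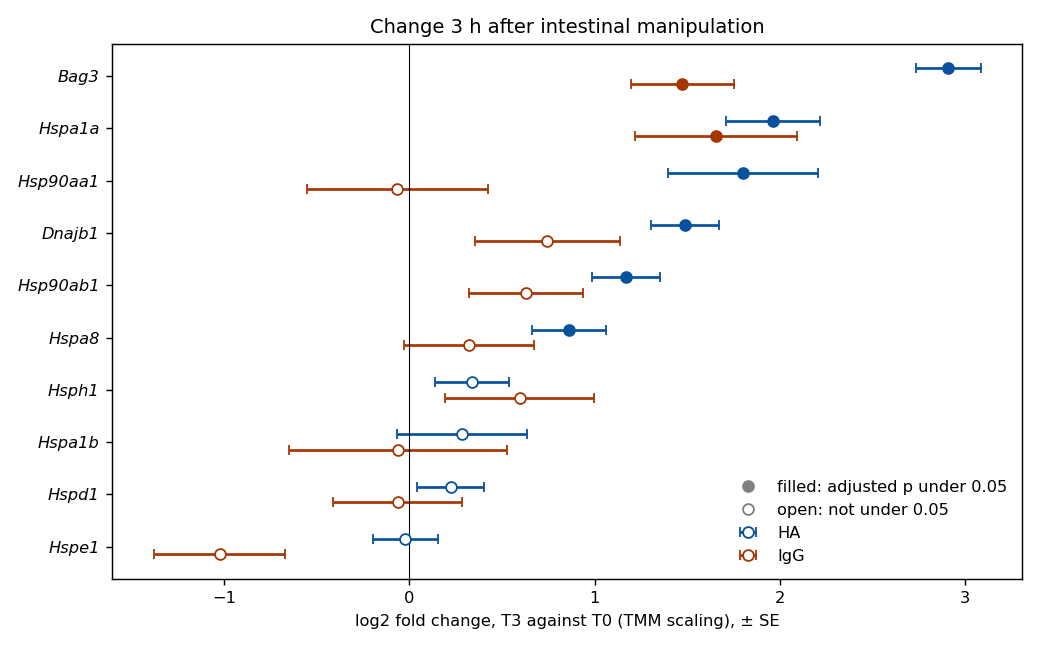
Log2 fold change from T0 to T3 (horizontal axis, TMM scaling) of the 10 chaperone genes in the HA and IgG pull-downs, with SE, 3 libraries per group. Filled points passed at an adjusted p under 0.05: 6 genes in HA, of which Bag3 is highest at 2.91, and 2 genes in IgG.

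An interaction term over all 12 libraries asked whether HA and IgG changed unequally with time, and 0.301% of 10314 genes passed with a larger change in HA. Bag3 passed, with a log2 difference of 1.53 (SE 0.31, adjusted p 0.0213), and no other gene of the set did. The call was lost in 13 of 19 alternatives, with an adjusted p of 0.0666 under RLE scaling and 0.152 under library totals. It was lost without any one of 10 libraries, the exceptions being IgG T3 animals 1 and 4 (up to 0.128 without the others), and with IgG T3 animal 4 alone (0.131). With the mouse as a block, which uses the split homogenate, Bag3 was called (0.00172) and so was Hsp90aa1 (2.18, SE 0.49, adjusted p 0.00576; 1.97, adjusted p 0.275 without the block). At an unadjusted p under 0.05 the count was 3 genes, all with a larger change in HA: Bag3, Hsp90aa1 and Hspe1 (1.05, interval 0.30 to 1.81, adjusted p 0.310). Dnajb1 was at 0.80 (interval 0.02 to 1.58, adjusted p 0.474), and the remaining genes had intervals that include 0. The median over all genes was 0.18, and -0.18 with library totals. Hspa1a rose in both pull-downs, and its difference was 0.35 with an interval from -0.64 to 1.35.

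Between pull-downs at one time, the question was which chaperone transcripts were higher or lower in HA than in the IgG background. Besides 10 of 10 glia markers, 4 of 5 markers of interstitial cells of Cajal were higher in HA at T0. The latter summed to 4137 to 4965 CPM in HA T0 and 375 to 473 in IgG T0. HA values therefore cannot be assigned to glia alone, and the part of these cells was not tested. In naive tissue 2 of the 10 genes were lower in HA and 0 were higher, where 14.4% of 9823 genes were lower and 16% higher. At an unadjusted p under 0.05 the counts were 2 lower and 0 higher, and by DESeq2 3 lower and 0 higher, the added gene being Hspa1b (adjusted p 0.0258), which also passed in a fit of all 12 libraries (0.0409). Hsp90aa1 was at 8.38 to 24.2 CPM in HA T0 and at 67.5 to 110.8 in IgG T0. It was lower in HA by a log2 fold change of -2.54 (SE 0.40, adjusted p 0.000622), or 5.81-fold. Bag3 was lower by -0.81 (SE 0.19, adjusted p 0.00595), with 77.7 to 86.8 CPM in HA and 138.8 to 146.8 in IgG.

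With the mouse as a block 5 of the 10 genes were lower in HA at T0. That fit also called more of all 9823 genes, 3807 in either direction against 2980 without the block. Those added were Hspa1a (log2 fold change -0.89, adjusted p 0.0128; 0.137 without the block), Hspa1b (-1.36, adjusted p 0.000402; 0.178 without) and Hspa8 (-0.50, adjusted p 0.0361; 0.133 without). In Hspa1b the same mouse was high or low in both pull-downs: animals 1, 2 and 4 were at 118.5, 49.7 and 24.0 CPM in IgG T0 and at 31.9, 25.7 and 11.5 in HA T0. The same order of the 3 mice held for Hspa1a and Hspa8. A block adds calls where both pull-downs vary together across mice, so this order is no separate support. Of the smooth muscle markers 10 of 10 were lower in HA at T0. In animals 1, 2 and 4 they summed to 46997, 59505 and 65450 CPM in IgG T0 and to 20712, 24488 and 15959 in HA T0. Their part was not tested.

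At T3 Hspa1b was the one gene of the 10 called, lower in HA with a log2 fold change of -1.23 (SE 0.41, adjusted p 0.0382), where 10.2% of 7200 genes were lower and 11.8% higher. It was at 20.1 to 28.0 CPM in HA T3 and at 54.3 to 60.4 in IgG T3, from 5, 5 and 15 counts. The call was lost in 11 of 14 alternatives, the block included (0.0812), and without any one of the 6 libraries (0.0626 to 0.304 without IgG T3 animals). At an unadjusted p under 0.05, 2 genes were higher in HA, Dnajb1 and Hsp90ab1, and 2 were lower, Hspa1a and Hspa1b. The share of all genes at that threshold was not computed. Dnajb1 was at 0.78 (adjusted p 0.0910) and was called higher in 3 of 14 alternatives, and Hsp90ab1 was at 0.60 (adjusted p 0.128) and was called higher in 5 of 14. For Bag3, lower in HA at T0, HA T3 lay above IgG T3 in every library, as for 19.4% of all genes, but the difference of 0.45 did not pass (adjusted p 0.231). For Hsp90aa1 the T3 value was -0.81 (interval -1.76 to 0.13, adjusted p 0.239), with 32.6, 56.3 and 170.2 CPM in IgG T3 from 3, 14 and 15 counts. In order of mean level, Bag3 ran HA T0, IgG T0, IgG T3 and HA T3, of which the last pair did not differ beyond the test. Hspa1a ran HA T0, IgG T0, HA T3 and IgG T3, and the neighbours within a time did not pass (adjusted p 0.137 at T0 and 0.0763 at T3). At T3 that pair passed with library totals (0.0478) and not with the block (0.0867).

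The wider chaperone network was read from lists of related genes in the HA pull-down, to be set against the 18.7% of all genes that rose and the 15.1% that fell. With library totals as scaling these shares were 12.7% and 28.2%. Of the HSF factors and their binding proteins, 3 were tested and 0 passed, with 1 lower at an unadjusted p under 0.05 and 0 by DESeq2. Hsf1 itself was at 73.9 ± 2.33 CPM in HA T0 and 48.1 ± 5.32 in HA T3 (log2 fold change -0.35, adjusted p 0.182, but -0.62 and 0.0196 with library totals). Hsf2 reached no more than 4 counts per HA library and was not tested. Of the other HSP70 and HSP110 genes listed 0 of 6 passed, also at an unadjusted p and by DESeq2. Hspa4 was at -0.40 and Hspa4l at -0.44. With library totals 2 genes of each of these 2 lists were lower.

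Of the other J-domain proteins 4 of 11 rose and 1 fell. Dnajb4, a close relative of Dnajb1, rose by 1.11 (SE 0.37, adjusted p 0.0256; 0.0613 with library totals). Among the HSP90 co-chaperones 2 of 11 rose, a share near that of all genes, one of them Stip1, which hands clients from HSP70 to HSP90 (0.66, SE 0.19, adjusted p 0.0116; 0.0867 with library totals). Ahsa1, which stimulates the ATPase of HSP90, was at -0.02 (adjusted p 0.947), and Chordc1 was too low to be tested. Of the other BAG proteins 2 of 4 rose and 1 fell. In the cytosolic chaperonin TRiC 3 of 8 subunits rose, with Cct2 at 0.24 (adjusted p 0.338). Library totals left 1 J-domain protein, 0 HSP90 co-chaperones, 1 BAG protein and 2 TRiC subunits that rose, and 2 HSP90 co-chaperones fell.

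Lists of chaperones and related genes of organelles were counted in the same way. In mitochondria 2 of 5 tested genes rose, with Hspa9, the mitochondrial HSP70, at 0.60 (SE 0.20, adjusted p 0.0224; 0.192 with library totals, under which 0 rose and 1 fell). In the endoplasmic reticulum 1 of 14 rose and 4 fell, and with library totals 0 rose and 9 fell, under a scaling that also gave more lower calls over all genes. Hspa5, the reticulum's HSP70, was at 0.08 (adjusted p 0.864) and Hsp90b1, its HSP90, at -0.33 (adjusted p 0.141; -0.60 and 0.00552 with library totals). At T0, when none of the 10 heat shock chaperones was higher in HA, 8 of 14 reticulum chaperones were, against 16% of all genes, Hsp90b1 among them (1199 ± 178 CPM in HA and 248 ± 75.3 in IgG, a log2 fold change of 2.26 with SE 0.25 and adjusted p 1.43e-05).

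Of the small heat shock proteins, ATP-independent holdases, 3 of 6 rose in HA and 1 fell. Hspb8, the partner of Bag3, rose by 0.80 (SE 0.19, adjusted p 0.00289), Hspb1 by 1.71 (SE 0.20, adjusted p 1.90e-06) and Cryab by 2.45 (SE 0.18, adjusted p 1.74e-09). All 3 remained called with library totals. In IgG 0 of the 57 genes tested in these 9 wider lists were called by edgeR, with 6 higher and 4 lower at an unadjusted p under 0.05, and DESeq2 called 1 small heat shock protein lower.

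**Figure D4:**
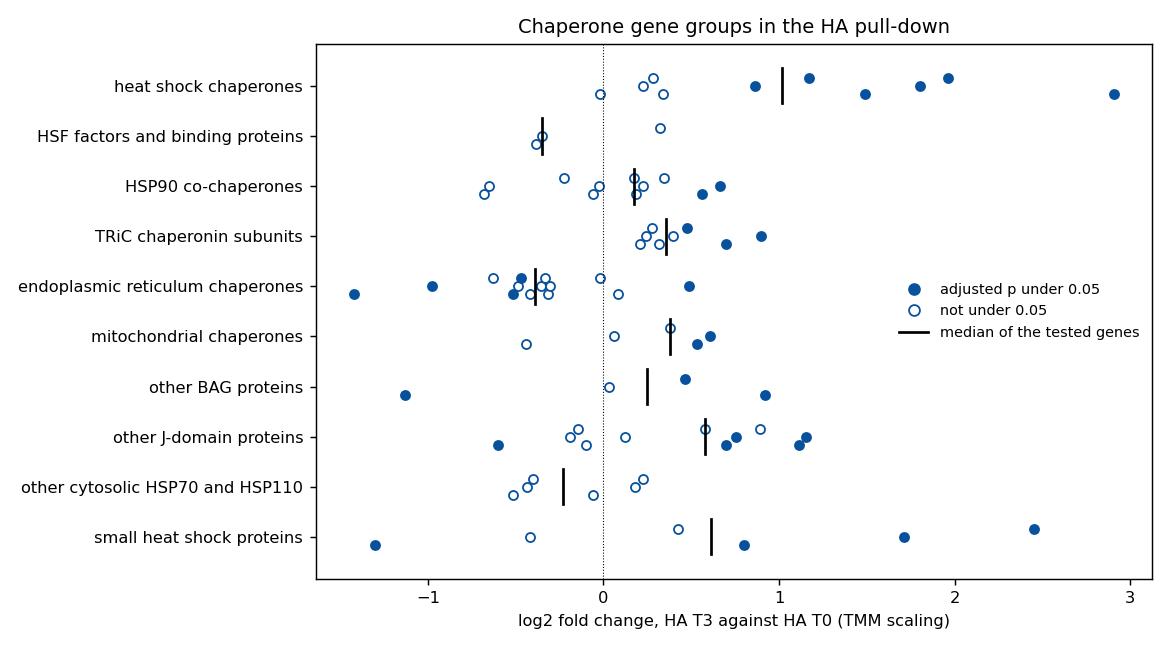
Log2 fold change from HA T0 to HA T3 (horizontal axis, TMM scaling) of each tested gene in the set and in 9 related lists; filled points passed at an adjusted p under 0.05 and bars are medians. The set has 6 filled points to the right and a median of 1.02, and the reticulum list has 4 to the left and a median of -0.39.

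The genes whose pattern over the 12 libraries was most like that of Hspa1a and Hspa1b summed were Slc7a1, an amino acid transporter, Tmem51, Morf4l1, a chromatin protein, Tmem173, also known as the adaptor STING, and Mgea5. Likeness was the root mean square difference of centred log2 CPM, which was 0.39, 0.40, 0.41, 0.42 and 0.43 for these genes against a median of 1.24 over 10304 genes. The genes were picked as the closest, so their distance from that median is no test. Slc7a1 went from 11.9 to 31.0 CPM in HA and from 19.8 to 54.5 in IgG, as group means. In IgG T3 a count of 0 allows up to 34.0, 32.6 and 12.1 CPM in animals 1, 3 and 4. The IgG T3 means of Slc7a1, Tmem51 (48.2) and Tmem173 (35.8) are therefore imprecise.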

How the data were processed

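Ribosome-bound RNA of 6 mice was sequenced in 12 pull-down libraries by a bulk form of MARS-seq, which counts 3′ ends of transcripts by molecular barcodes (UMIs), in pools of at most 8. Reads were trimmed by the authors (cutadapt) and aligned to mm10 (STAR 2.4.2a); they kept unique matches and counted UMIs with HTSeq from 1000 bases upstream to 100 downstream of each 3′ end. The deposited values are whole UMI counts per gene without normalisation, and were the same in the series table and the single files. Whether mice of a group shared a day or pool is not given in the sources used here.

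Counts were tested with edgeR 4.0.16 (R 4.3.3) by its robust quasi-likelihood F-test with TMM scaling, filterByExpr and Benjamini-Hochberg adjustment over all genes tested, at 0.05. Comparisons of 2 groups used their 6 libraries and the interaction all 12. The script was tested on simulated data. SE was derived from the F statistic, and intervals are 2 SE. CPM are counts scaled to the library total, and values with ± are mean and SD of 3 libraries. A count of 0 allows up to 3 counts, and this and the 95% Wilson intervals cover counting error only. Alternatives were RLE scaling, library totals, no filter, at least 5 counts in 1 library, DESeq2 1.42.0, all 12 libraries, a block and leaving out each library. Positions and shared 50-base stretches come from GENCODE M21 and promoters from RefSeq, both on GRCm38.

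HA and IgG libraries of a mouse came from 1 homogenate and are paired by design. Their deviations from the group means correlated at 0.268, 0.269 and 0.273 across genes at T0 and at 0.162, 0.153 and 0.0886 at T3. The genes, the lists and the rule for named genes (all 10 genes, 16 network genes chosen for their place in it and the 5 genes most like Hspa1a plus Hspa1b) were chosen with earlier results of these data known. Other genes are counted only. Of the 16, Dnaja1 was not used here. The name of the gene whose promoter drives the Cre is not reported here.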

Additional observations from a re-analysis of the deposited data

Results flagged for a closer look

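Bag3 changed more in HA than in IgG from T0 to T3, with a difference of 1.53 on the log2 scale (edgeR interaction test, SE 0.31, adjusted p 0.0213). Its mean went from 83.3 to 521.9 CPM in HA and from 143.8 to 405.4 in IgG. The call was lost in 13 of 19 alternatives, among them RLE scaling (0.0666), library totals (0.152) and leaving out any one of 10 libraries.

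The small heat shock proteins Cryab and Hspb1, which work beside Bag3 and HSP70, differed between the pull-downs in the same test. Cryab was at 1101 to 1416 CPM in HA T0 and 5481 to 6284 in HA T3, and at 603 to 794 in IgG T0 and 599.5 to 1011 in IgG T3, a difference of 2.25 (SE 0.33, adjusted p 0.00112). Hspb1 was at 659 to 962 CPM in HA T0 and 1744 to 2545 in HA T3, and at 1136 to 1438 in IgG T0 and 624 to 1360 in IgG T3, a difference of 2.07 (SE 0.39, adjusted p 0.0156). With library totals as scaling 1 of these 2 small heat shock proteins passed.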

How the results depend on the processing

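In HA T3 against T0 the 6 called genes kept their call and direction in all 13 alternatives. The direction of genes that did not pass turned in some: Hspd1 with library totals (-0.050), Hspe1 with at least 5 counts in 1 library (0.0016), and without single libraries Hspa1b (-0.11 to 0.64) and Hspe1 (-0.11 to 0.047). The replicate block, where numbers belong to different mice and so pair nothing at T3 against T0, gave 7 called genes in HA, the added one being Hsph1 (0.60, adjusted p 0.0188), and turned Hspa1b (0.26) and Hsp90aa1 (0.13) in IgG. Over all genes that block called 3434 in HA, against 3187 in the main fit.

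In IgG T3 against T0 all genes called were 285, against 519 with no filter, 705 with all 12 libraries and 162 to 334 without single libraries, and the chaperones called were 2, against 0 to 2 without single libraries (0 without T0 animal 2) and 1 with T3 animal 4 alone. Without single libraries the log2 fold change ranged from -0.54 to 0.68 for Hspa1b, -0.19 to 0.56 for Hspa8, -0.78 to 0.24 for Hsp90aa1 and -0.24 to 0.021 for Hspd1, and with T3 animal 4 alone it was 0.11 for Hspa1b and -0.14 for Hsph1.

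Between pull-downs, the chaperones called at T0 were 2, and 3 by DESeq2 and with all 12 libraries (Hspa1b added), 5 with the mouse as replicate block or 2 to 4 without single libraries (Hspa1a and Hspa1b added without IgG T0 animal 4). All genes called at T0 were 3807 with that block, against 2980 in the main fit. Without single libraries Hsph1 ranged from -0.011 to 0.43 and Hspd1 from -0.012 to 0.31. At T3 it was 1 (Hspa1b, lower), and 2 with library totals (Hspa1a and Hspa1b, lower), 2 with no filter and with at least 5 counts in 1 library (Dnajb1 and Hsp90ab1, higher, with Hspa1b lost at 0.130 and 0.0963), 2 with IgG T3 animal 4 alone (Hsp90ab1, higher, and Hspa8, lower), 3 with all 12 libraries (Dnajb1, Hsp90ab1 and Bag3, higher), 0 with the block and 0 to 1 without single libraries, where all genes called ranged from 849 to 1977. At T3 Hsph1 turned with no filter (0.030), all 12 libraries (0.046), IgG T3 animal 4 alone (0.62) and single libraries left out (-0.50 to 0.34), and Hspa8 with no filter (0.14), at least 5 counts (0.085), all 12 libraries (0.18), the block (0.010) and single libraries left out (-0.24 to 0.51).

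In the interaction 1 chaperone and 34 genes were called, against 0 and 20 with RLE scaling, 0 and 8 with library totals, 64 genes by DESeq2, 2 and 158 with the block, 0 and 6 with IgG T3 animal 4 alone, and 0 to 1 and 5 to 95 without single libraries. Hspa1a turned with library totals (-0.0099) and ranged from -0.18 to 0.70 without single libraries, Hspa1b from -0.42 to 0.80 and Hsph1 from -0.55 to 0.26. With IgG T3 animal 4 alone Hsph1 was 0.47 and Hspa8 -0.0996. The summed level of the set in HA T3 was 5226 CPM with TMM scaling and 4445 without. The causes of these differences were not tested. Depth limits the IgG T3 group most, where Hsp90aa1 had 3 to 15 counts and Hspa1b 5 to 15. The fit with IgG T3 animal 4 alone was added after the data were seen.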
